A study of Mus musculus with 6 samples.

Results

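The 7 genes described here carry the pathway that turns extracellular ATP into adenosine and senses both: Entpd1, Nt5e, Ada, Adora2a, Adora2b, P2rx7 and P2rx4. They were chosen by symbol from the 24537 rows of a table of transcript levels, and all 7 were among the 13211 genes that passed a filter on low values. The libraries came from colon regulatory T cells (Tregs, CD4 T cells that hold immune responses in check) of mice in which the hapten TNBS had induced colitis. TNBS was put on the skin (150 µl at 1%) and, 7 days later, given into the rectum (100 µl at 2.5%), per the labels' protocols. The groups are 3 libraries labelled REV-ERB KO and 3 labelled REV-ERB WT, and all 6 share the TNBS treatment. Which of Nr1d1 and Nr1d2 was deleted, in which cells, and at what age the mice were used, is not stated in the labels. Nor do they state how the Tregs were isolated or whether each library is a separate animal. The p-values therefore measure only the spread between these libraries, which may be technical.

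ATP released by stressed or dying cells acts on P2X channels and P2Y receptors. Enzymes on the cell surface remove it: CD39, the product of Entpd1, takes ATP and ADP to AMP, and CD73, the product of Nt5e, takes AMP to adenosine. Adenosine raises cyclic AMP through the A2a and A2b receptors and restrains T cells, and adenosine deaminase (Ada) ends that signal by making inosine. Mouse Tregs are known to carry CD39 and CD73 together and to use adenosine as one of their means of suppression, while P2X7 stimulation by ATP or by ADP-ribosylation is known to harm them.

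Levels are in TPM (reads scaled for transcript length and library size), so they can be compared between genes as well as between libraries. Depth ranged over 12641850 to 15890630 reads in the KO-labelled libraries and 9794480 to 12122575 in the WT-labelled ones. Nr1d1, which encodes REV-ERBα, was higher in the KO-labelled libraries (155.0 ± 13.9 TPM) than in the WT-labelled ones (86.2 ± 18.9 TPM; SD, n = 3 each). Nr1d2, which encodes REV-ERBβ, overlapped at 68.8 ± 18.2 TPM in the KO-labelled libraries and 61.0 ± 10.04 TPM in the WT-labelled ones. Neither shows a loss of the transcript in the KO-labelled libraries, and since the deleted exons are not given, directions follow the labels. The defining Treg and T cell transcripts were present in every library, Foxp3 at 200.6 ± 32.1 TPM in the KO-labelled libraries and 568.4 ± 107.8 TPM in the WT-labelled ones, and Cd4 at 419.9 ± 8.14 TPM in the KO-labelled libraries and 492.1 ± 35.9 TPM in the WT-labelled ones. Foxp3 was thus lower without overlap (log2 difference -1.49), and its limma adjusted p of 0.0678 was the smallest of all genes. Of 9 Treg and T cell markers, 8 had differences below 0. Without overlap, 5 of the 9 lay below, against 10.4% of the 13211 genes that passed the filter. RNA of other cells was present in both groups. The summed level of 12 epithelial markers was 3065 to 6070 TPM in the KO-labelled libraries and 2131 to 3023 TPM in the WT-labelled ones. Of these, 9 lay above in the KO-labelled libraries without overlap, against 10.6% of all genes tested, and none of the 12 was at 0. The 11 macrophage and dendritic cell markers, none of them at 0, summed to 916.3 to 1685 TPM in the KO-labelled libraries and 886.6 to 1403 TPM in the WT-labelled ones, with no marker separated. The 5 B and plasma cell markers summed to 518.2 to 2018 TPM in the KO-labelled libraries and 692.2 to 1474 TPM in the WT-labelled ones. For 8 fibroblast and smooth muscle markers the sums were 254.4 to 498.6 TPM and 197.6 to 467.1 TPM. No marker of these 2 lists was separated. The 5 neutrophil markers were low, at 7.45 to 42.0 TPM in sum in the KO-labelled libraries and 3.79 to 10.6 TPM in the WT-labelled ones. All 4 tested had differences above 0 (median 1.73 on the log2 scale). Of these, S100a8 passed the filter on low values only through the KO-labelled libraries, which fixed its direction. It was 1.22 to 8.57 TPM there, on 4, 20 and 35 reads, and 0 in every WT-labelled library.

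By level, the 7 genes spanned a wide range and kept nearly the same order in both groups. Nt5e was the highest, at 147.0 ± 10.7 TPM in the KO-labelled libraries and 221.9 ± 45.8 TPM in the WT-labelled ones (SD, n = 3 each). Adora2a was the next, at 103.8 ± 10.1 TPM in the KO-labelled libraries and 121.5 ± 9.93 TPM in the WT-labelled ones. P2rx4, Entpd1 and P2rx7 lay in a middle range between 21.4 and 35.4 TPM on average in either group. Ada was lower, and Adora2b was the lowest of the 7 in both groups. Within the KO-labelled libraries, P2rx4 stood above Entpd1 in every library, whereas within the WT-labelled ones Entpd1 stood above P2rx4. Neighbours whose libraries overlapped were Entpd1 and P2rx7 in the KO-labelled libraries, and P2rx4 and P2rx7 in the WT-labelled ones. All other neighbours in the order were separated in every library of the group.

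Between the groups, Entpd1, Nt5e and Adora2a were lower in all 3 KO-labelled libraries than in any labelled WT, and Ada and P2rx4 were higher. These 5 members did not overlap between the groups, while P2rx7 and Adora2b did. In bulk samples, fewer cells of a type and less RNA per cell cannot be told apart. Over all genes tested, 10.4% lay below and 10.6% above without overlap, 21.0% in all. None of the 7 passed the threshold of 0.05 in limma's moderated test with Benjamini-Hochberg adjustment over all 13211 genes (smallest adjusted p = 0.194, for Nt5e). In that test 0.00% of all genes passed, and voom on recovered reads also called 0. Unadjusted p-values under 0.05 were found for 2 members that were lower and 1 that was higher. Among all genes tested, 2068 had such a p, 7.86% lower and 7.80% higher. With 3 libraries against 3, an exact permutation test (two-sided) cannot go below p = 0.1, and it gave 0.1 for each of the 5 separated members.

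**Figure D1:**
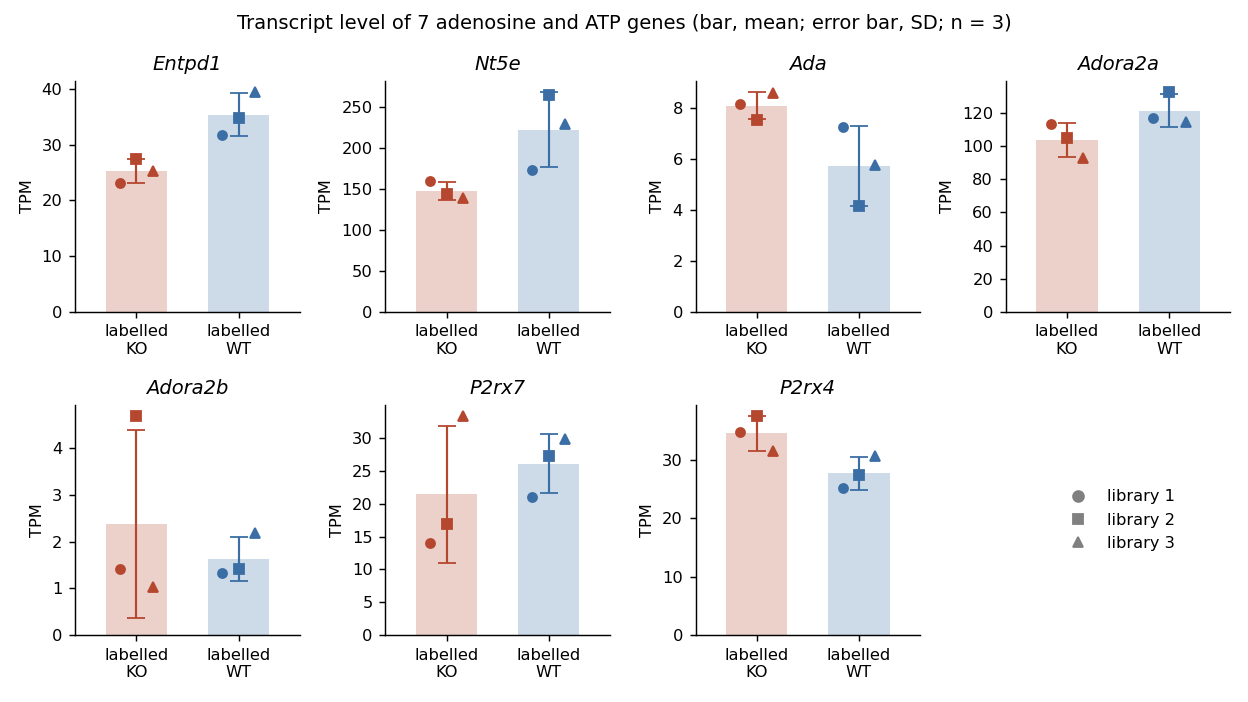
Transcript level in TPM of each of the 7 genes (one panel each, vertical axis from 0) in the KO-labelled and the WT-labelled libraries. Points are single libraries, with the shape giving the replicate number, bars are means and error bars SD (n = 3). Entpd1, Nt5e and Adora2a are lower in every KO-labelled library, Ada and P2rx4 are higher in every KO-labelled library, and P2rx7 and Adora2b overlap.

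Entpd1 (NM_009848, mm10 chromosome 19, 40659770 to 40741602, plus strand) encodes CD39, the ectoenzyme that starts the breakdown of ATP. Entpd1 levels were 23.2, 27.5 and 25.3 TPM in the KO-labelled libraries 1, 2 and 3, against 31.8, 34.8 and 39.5 TPM in the WT-labelled ones 1, 2 and 3. Every KO-labelled library was below every WT-labelled library, with a gap of 4.37 TPM between the nearest of them. The means were 25.3 ± 2.14 TPM in the KO-labelled libraries and 35.4 ± 3.86 TPM in the WT-labelled ones, a difference of -28.5% in mean TPM. On the log2(TPM + 1) scale the difference was -0.47 (SE 0.128, 95% interval -0.76 to -0.17, limma adjusted p = 0.195). No other gene of the table or of GENCODE overlaps its row. The row models the transcript that starts 47404 bases downstream of the most upstream start in GENCODE.

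Nt5e (NM_011851, mm10 chromosome 9, 88327609 to 88372089, plus strand) encodes CD73, which makes adenosine from AMP. Its levels were 159.0, 143.7 and 138.3 TPM in the KO-labelled libraries 1, 2 and 3, against 173.2, 264.1 and 228.4 TPM in the WT-labelled ones 1, 2 and 3. The KO-labelled libraries lay close together (SD 7.28% of the mean) below the WT-labelled ones, which spread more widely (20.6% of the mean), with WT 1 nearest to the other group. The difference in Nt5e was -0.57 on the log2 scale (SE 0.157, 95% interval -0.93 to -0.21, limma adjusted p = 0.194), or -33.7% in mean TPM. With weights per library the limma adjusted p of Nt5e was 0.0462, the only setting in which any of the 7 passed. In that setting 582 of all 13211 genes passed, against 0 in the main one. Over its other settings the adjusted p of Nt5e ran from 0.0824 to 0.546.

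The ratio of Nt5e to Entpd1 within a library, chosen after the values were seen and not tested, was 5.85 ± 0.879 in the KO-labelled libraries and 6.27 ± 1.15 in the WT-labelled ones. The groups overlapped in this ratio. The 250 bases before the start of each modelled transcript are shown for both enzymes because they were lower together. They are RefSeq sequence of GRCm38.p6, the build mm10 stands for, at chr19:40659520-40659769 and chr9:88327359-88327608, both on the plus strand. Capitals mark matches on either strand to any of the motifs searched, which were AGGTCA (the core site bound by REV-ERB and ROR), CACGTG (E-box), TGACGTCA (cAMP response element), GTAAACA (forkhead) and GGGCGG (GC box). No match of one motif overlaps a match of another in these windows.
Entpd1: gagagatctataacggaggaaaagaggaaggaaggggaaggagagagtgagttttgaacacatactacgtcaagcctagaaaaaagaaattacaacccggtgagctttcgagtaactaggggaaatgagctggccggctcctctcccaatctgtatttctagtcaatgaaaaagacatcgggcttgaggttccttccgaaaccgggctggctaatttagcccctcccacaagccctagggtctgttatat
Nt5e: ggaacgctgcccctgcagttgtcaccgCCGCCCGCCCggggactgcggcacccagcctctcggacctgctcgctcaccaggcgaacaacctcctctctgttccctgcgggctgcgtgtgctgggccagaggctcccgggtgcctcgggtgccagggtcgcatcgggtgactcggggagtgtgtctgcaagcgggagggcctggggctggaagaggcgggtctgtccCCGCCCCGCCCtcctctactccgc
The Entpd1 window held no match to these motifs. That of Nt5e held 4 matches to the GC box, all as its reverse complement and in overlapping pairs. GGGCGG is in 32.7% and AGGTCA in 14% of the 32817 promoter windows of that length. CACGTG is in 6.02%, GTAAACA in 3.16% and TGACGTCA in 1.55%.

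Ada (NM_007398, mm10 chromosome 2, 163726571 to 163750239, minus strand) encodes adenosine deaminase, which removes adenosine inside cells and, bound to CD26 in humans, at their surface. The Ada transcript reached 8.13, 7.53 and 8.60 TPM in the KO-labelled libraries 1, 2 and 3, against 7.25, 4.14 and 5.77 TPM in the WT-labelled ones 1, 2 and 3. All 3 KO-labelled libraries were above all labelled WT, but WT 1 came within 0.283 TPM of KO 2. These values rest on 116, 118 and 153 reads in the KO-labelled libraries and 80, 54 and 73 reads in the WT-labelled ones. The exact Poisson 95% intervals of KO 2 (6.24 to 9.02 TPM) and WT 1 (5.75 to 9.02 TPM) overlap almost wholly, and they cover counting error only. Ada differed by 0.46 on the log2 scale (SE 0.216, 95% interval -0.04 to 0.96, limma adjusted p = 0.349), and 0.28 without the WT-labelled library 2. Entpd1 stood at 3.15 ± 0.434 times the level of Ada in the KO-labelled libraries and at 6.55 ± 2.03 times in the WT-labelled ones, without overlap. Since Entpd1 was lower and Ada higher in every KO-labelled library, that ratio could not overlap and adds nothing to their levels. It was likewise chosen after the values were seen and has no test.

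Adora2a (NM_001331095, mm10 chromosome 10, 75317600 to 75334792, plus strand) encodes the A2a receptor, the main adenosine receptor of T cells. Its transcript stood at 113.3, 104.9 and 93.1 TPM in the KO-labelled libraries 1, 2 and 3, against 117.2, 132.8 and 114.4 TPM in the WT-labelled ones 1, 2 and 3. The groups were separated by 1.05 TPM, between KO 1 and WT 3, a gap within the counting error of either library (108.7 to 118.1 and 109.5 to 119.5 TPM). Adora2a differed by -0.23 on the log2 scale (SE 0.111, 95% interval -0.48 to 0.03, limma adjusted p = 0.370), or -14.6% in mean TPM. Relative to T cell transcripts its direction turned to 0.06 on the log2 scale.

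Adora2b (NM_007413, mm10 chromosome 11, 62248984 to 62266452, plus strand) encodes the A2b receptor, which needs more adenosine than A2a and is known from colonic epithelium and myeloid cells. The level of Adora2b was 1.41, 4.68 and 1.03 TPM in the KO-labelled libraries 1, 2 and 3, against 1.33, 1.41 and 2.18 TPM in the WT-labelled ones 1, 2 and 3. The KO-labelled library 2 stood apart, with 80 reads where the others had 16 to 30. The groups overlapped (0.22 on the log2 scale, SE 0.404, 95% interval -0.72 to 1.15, limma adjusted p = 0.824), and without KO 2 the difference turned to -0.24. KO 2 was also the library with the highest summed epithelial markers (6070 TPM) and macrophage and dendritic cell markers (1685 TPM). WT 3, the next highest for Adora2b, was the next highest for the macrophage and dendritic cell markers (1403 TPM) but not for the epithelial ones (2250 TPM). The 5 mast cell markers summed to 15.2 to 49.4 TPM in the KO-labelled libraries, with KO 2 highest, and to 16.9 to 26.2 TPM in the WT-labelled ones. They did not move together: the protease transcripts Mcpt1 and Mcpt2 stood at 19.9 and 3.91 TPM in KO 2 and at most 0.261 TPM elsewhere, while Kit was 25.4 TPM in KO 2 against 30.5 TPM in KO 1, Cpa3 did not exceed 0.18 TPM in any library, and Fcer1a was at 0 in KO 2. The part of such cells in the level of Adora2b was not tested. The remaining adenosine receptors, Adora1 and Adora3, never exceeded 0.789 TPM in a library.

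P2rx7 (NM_001284402, mm10 chromosome 5, 122650424 to 122684289, plus strand) encodes the P2X7 channel, which opens at high ATP or, on mouse T cells, after ADP-ribosylation by ART2. P2rx7 transcript levels were 13.99, 16.8 and 33.3 TPM in the KO-labelled libraries 1, 2 and 3, against 21.1, 27.3 and 29.8 TPM in the WT-labelled ones 1, 2 and 3. KO 1 and KO 2 were the lowest of the 6 libraries and KO 3 the highest, so the groups overlapped and the SD of the KO-labelled libraries was 48.8% of their mean. P2rx7 differed by -0.36 on the log2 scale (SE 0.301, 95% interval -1.05 to 0.34, limma adjusted p = 0.594). It was -0.71 without KO 3 and -0.11 without KO 1. The values of KO 1, KO 2 and KO 3 rest on 562, 742 and 1670 reads. Their exact Poisson 95% intervals, 12.9 to 15.2, 15.6 to 18.1 and 31.7 to 35.0 TPM, did not overlap. These intervals take each read as independent, which was not tested. If both mates of read pairs were counted, the intervals would be wider, and those of KO 1 and KO 2 might overlap.

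The table models P2rx7 by a transcript with a starting exon of its own. In GENCODE this start lies inside intron 1 of the other 3 full-length models, and all 4 share the start of the next exon. Whether reads of the other forms entered this value is not given in the sources used. The microRNA gene Mir8115 lies inside the row.

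The 4 tested genes tied to P2X7 function all had differences below 0, and none passed the threshold (median -0.27 on the log2 scale, against 0.00 for all genes tested). Art2b, the ADP-ribosyltransferase that gates P2X7 on mouse T cells, stood at 6.28, 5.10 and 13.9 TPM in the KO-labelled libraries, against 14.1, 21.3 and 14.2 TPM in the WT-labelled ones. Panx1, a channel that releases ATP, stood at 46.1, 47.5 and 63.1 TPM in the KO-labelled libraries, against 67.4, 67.7 and 64.4 TPM in the WT-labelled ones. Both were below in every KO-labelled library (log2 differences -0.98 and -0.36, limma adjusted p = 0.244 and 0.273), with KO 3 nearest to the WT-labelled libraries. Of all genes tested, 10.4% lay below without overlap. Art2b is closely related to Art2a, which was listed but had no row under that symbol, so the level of Art2b is uncertain. Myh9, a myosin heavy chain found in complex with P2X7, overlapped between the groups at 260.7, 307.8 and 404.6 TPM in the KO-labelled libraries, against 317.5, 373.1 and 400.6 TPM in the WT-labelled ones. In P2rx7, Art2b, Panx1 and Myh9, KO 3 was the highest of the KO-labelled libraries, a pattern noted after the values were seen. The other gene of the 4, Ano6, a lipid scramblase and ion channel, did not share it, at 23.1, 25.2 and 24.1 TPM in the KO-labelled libraries 1, 2 and 3, against 22.9, 27.3 and 25.3 TPM in the WT-labelled ones 1, 2 and 3. Relative to T cell transcripts the log2 differences of P2rx7 and Panx1 were -0.07 each, that of Art2b -0.70 and that of Myh9 0.11. The median of all genes tested was 0.29 on that scale. Foxp3 and Cd3e were also highest in KO 3 among the KO-labelled libraries, at 235.0 and 224.0 TPM. The pattern is thus not particular to genes tied to P2X7, and the share of all genes that have it was not computed.

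**Figure D2:**
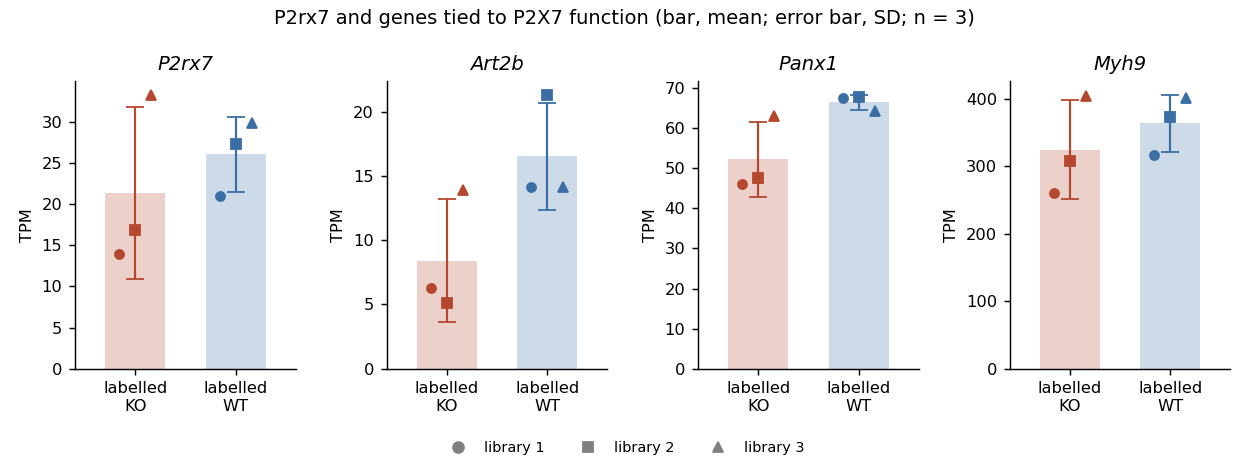
Transcript level in TPM of P2rx7, Art2b, Panx1 and Myh9 (one panel each, vertical axis from 0) in the KO-labelled and the WT-labelled libraries; points are libraries, bars means, error bars SD (n = 3). KO 3 is the highest of the KO-labelled libraries in all 4 panels.

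P2rx4 (NM_011026, mm10 chromosome 5, 122707544 to 122729738, plus strand) encodes the P2X4 channel, which opens at lower ATP than P2X7 and serves calcium entry in activated T cells. Its row begins 23.3 kb after the end of that of P2rx7. Levels of P2rx4 were 34.8, 37.5 and 31.5 TPM in the KO-labelled libraries 1, 2 and 3, against 25.1, 27.4 and 30.7 TPM in the WT-labelled ones 1, 2 and 3. All KO-labelled libraries were above all labelled WT, with 0.769 TPM between KO 3 and WT 3. P2rx4 differed by 0.31 on the log2 scale (SE 0.126, 95% interval 0.02 to 0.60, limma adjusted p = 0.299), or 24.6% higher in mean TPM. P2rx4 stood at 2.49, 2.23 and 0.945 times the level of P2rx7 in the KO-labelled libraries 1, 2 and 3, against 1.19, 1.00 and 1.03 times in the WT-labelled ones 1, 2 and 3. KO 1 and KO 2 were thus above every WT-labelled library in this ratio and KO 3 below, a description with no test. The other 5 P2X genes were at or under 0.765 TPM in every library, and P2rx2 had 0 reads in all, which allows up to 0.236 TPM in the shallowest library if reads are independent.

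The same 250-base windows are shown for Ada and P2rx4, the 2 members that were higher, at chr2:163750240-163750489 (minus strand) and chr5:122707294-122707543 (plus strand). For P2rx7 the window before the inner start that RefSeq annotates is shown, at chr5:122650133-122650382 (plus strand), a short way upstream of the start in the table. Capitals again mark motif matches on either strand.
Ada: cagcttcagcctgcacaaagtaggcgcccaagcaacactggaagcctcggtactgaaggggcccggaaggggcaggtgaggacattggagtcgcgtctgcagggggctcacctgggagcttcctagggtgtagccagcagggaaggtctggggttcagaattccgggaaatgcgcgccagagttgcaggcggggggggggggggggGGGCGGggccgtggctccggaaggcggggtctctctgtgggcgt
P2rx4: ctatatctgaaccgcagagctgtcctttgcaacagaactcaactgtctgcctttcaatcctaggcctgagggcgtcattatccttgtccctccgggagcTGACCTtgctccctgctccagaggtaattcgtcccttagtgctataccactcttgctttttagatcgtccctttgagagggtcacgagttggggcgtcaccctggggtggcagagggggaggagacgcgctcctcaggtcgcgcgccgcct
P2rx7: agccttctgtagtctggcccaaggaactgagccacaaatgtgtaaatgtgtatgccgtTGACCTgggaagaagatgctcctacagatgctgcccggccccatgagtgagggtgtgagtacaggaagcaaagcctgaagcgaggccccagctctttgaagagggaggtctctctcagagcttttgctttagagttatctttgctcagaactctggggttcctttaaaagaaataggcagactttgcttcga
The Ada window held 1 GC box. Those of P2rx4 and of the inner P2rx7 start each held 1 match to AGGTCA, as its reverse complement TGACCT, and none to the other 4 motifs. RefSeq also annotates an outer P2rx7 start, at 122643927, whose window is not shown. It held the GC box at -90 to -85 and, as its reverse complement, at -11 to -6, and no AGGTCA. Neither P2rx7 window lies at the start used in the table. Of the 5 members with a window at the start used in the table, P2rx4 was the only one with AGGTCA, and 3 held GGGCGG. A match is only a description of these letters.

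The level of T cell transcripts in the same libraries also differed between the groups. The summed TPM of Cd3d, Cd3e, Cd3g and Cd4 was 1081, 1056 and 1192 in the KO-labelled libraries 1, 2 and 3, against 1230, 1440 and 1398 in the WT-labelled ones 1, 2 and 3. The difference in means was -18.2%, and the groups did not overlap. Set against this sum, a comparison added after the data were seen, 2 members stayed separated. Ada stood at 0.729% ± 0.0203 of the sum in the KO-labelled libraries and 0.430% ± 0.152 in the WT-labelled ones, and P2rx4 at 3.14% ± 0.459 in the KO-labelled libraries and 2.05% ± 0.148 in the WT-labelled ones (SD, n = 3 each). Neither overlapped between the groups (exact two-sided permutation p = 0.1 each, n = 3 each, the smallest possible). The share of all genes without overlap on this scale was not computed. In limma's fit on it, 3800 of all 13211 genes were higher and 219 lower at unadjusted p under 0.05. In TPM these counts were 1030 and 1038, so a higher level in the KO-labelled libraries is common on this scale. The epithelial markers lay higher in the KO-labelled libraries, as given above, and the nuclear transcripts Malat1 and Neat1 together were at 441.7 to 489.6 TPM in the KO-labelled libraries and 785.6 to 1006 TPM in the WT-labelled ones. Foxp3 was lower in the KO-labelled libraries, as given above. The part of any of these, or of the other cell markers, in the levels of the 7 genes was not tested.

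Entpd1, Nt5e and Adora2a, which were separated in TPM, overlapped once set against T cell transcripts. Entpd1 was 2.29% ± 0.270 of the sum in the KO-labelled libraries and 2.61% ± 0.204 in the WT-labelled ones (exact permutation p = 0.3, n = 3 each). Nt5e was 13.3% ± 1.57 in the KO-labelled libraries and 16.3% ± 2.13 in the WT-labelled ones (exact permutation p = 0.2, n = 3 each). Adora2a was 9.41% ± 1.41 in the KO-labelled libraries and 8.98% ± 0.703 in the WT-labelled ones, the opposite order to that in TPM (exact permutation p = 0.7, n = 3 each). P2rx7, which overlapped in TPM, was 1.89% ± 0.795 in the KO-labelled libraries and 1.91% ± 0.212 in the WT-labelled ones (exact permutation p = 0.8, n = 3 each). This scaling also moved the median of all genes tested, to 0.29 on the log2 scale. On that scale Entpd1 was at -0.18, Nt5e at -0.28, Adora2a at 0.06, Ada at 0.75 and P2rx4 at 0.60. The scaling moves the difference of every gene by the same amount. The place of each member relative to the median is therefore the same as in TPM and is no new result.

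**Figure D3:**
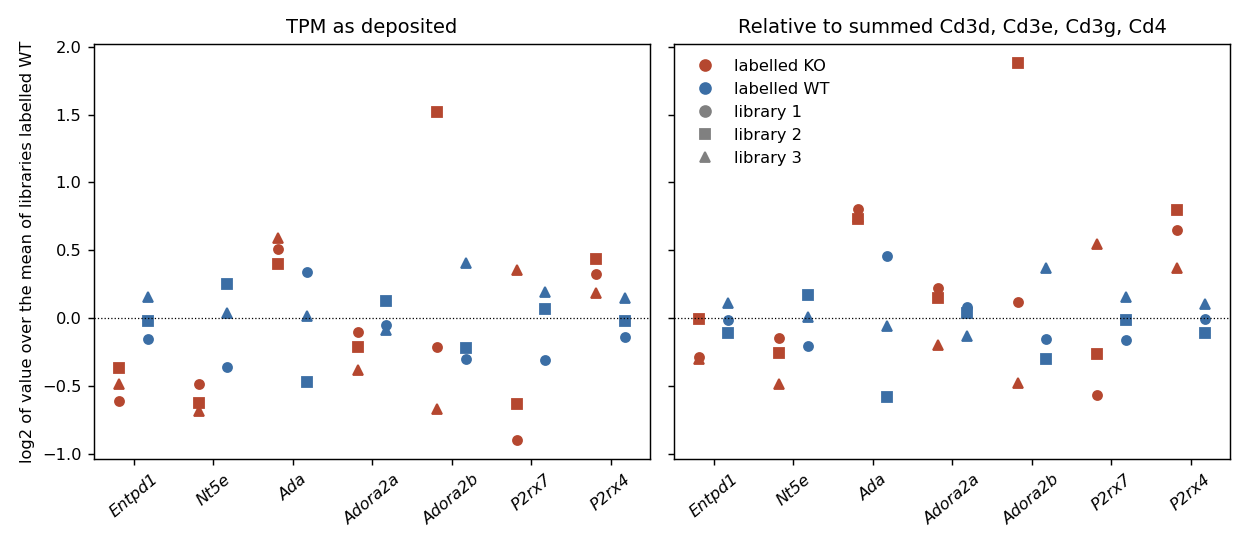
Each library's value of the 7 genes over the mean of the WT-labelled libraries, on a log2 axis, for TPM (left) and for TPM relative to the summed Cd3d, Cd3e, Cd3g and Cd4 (right). Libraries labelled KO stand left of the WT-labelled ones and shapes give the replicate number. Entpd1, Nt5e and Adora2a separate in the left panel and overlap in the right one, while Ada and P2rx4 separate in both.

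Of the other genes of the pathway, 79 were listed, 78 were in the table and 62 were tested. None passed the threshold in either direction. Without overlap, 7 were above and 6 below in the KO-labelled libraries, that is 13 of 62 against the 21.0% of all genes given above. Their median difference was 0.04 on the log2 scale, with 34 above 0 and 28 below.

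Among 8 tested surface and secreted enzymes of ATP, ADP, AMP and NAD (median 0.20), Cd38, which splits NAD, was 25.5 ± 4.09 TPM in the KO-labelled libraries and 17.8 ± 2.70 TPM in the WT-labelled ones, without overlap (log2 difference 0.49, limma adjusted p = 0.241). Entpd8, an NTPDase of the gut, and Enpp2 overlapped between the groups (0.53 and 0.60). The 3 tested intracellular or soluble NTPDases were all above 0, Entpd6 at 0.35 and Entpd5 at 0.27 without overlap and Entpd7 at 0.12 with it. Entpd2, a surface NTPDase, differed by 0.25 with overlap, so Entpd1 was the one tested NTPDase with a difference below 0. Entpd1 was the highest of these genes in each of the 6 libraries, though narrowly so in KO 1 (23.2 against 22.7 TPM of Entpd6) and KO 2 (27.46 against 27.38 TPM of Entpd5).

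Among 14 tested genes of adenosine uptake and disposal (median 0.05), 2 were above and 2 below without overlap, against 10.6% and 10.4% of all genes tested. Slc28a2, a transporter that takes up purine nucleosides, stood at 16.9, 19.5 and 28.3 TPM in the KO-labelled libraries 1, 2 and 3, against 32.6, 44.9 and 37.2 TPM in the WT-labelled ones 1, 2 and 3. The groups did not overlap and the difference of -0.82 (SE 0.206, limma adjusted p = 0.172) was the one of smallest p among the 62; it has a near-identical neighbour copy in mouse, so the count may be split. Adk, the kinase that returns adenosine to AMP inside cells, was 44.1 ± 1.5 TPM in the KO-labelled libraries and 35.3 ± 1.57 TPM in the WT-labelled ones (0.31, limma adjusted p = 0.226), and Aprt, which salvages adenine, differed by 0.31 (limma adjusted p = 0.275). Both were above in all 3 KO-labelled libraries, as Ada was. Nt5c2 of the same list was below without overlap, as Slc28a2 was. It stood at 12.5 ± 1.01 TPM in the KO-labelled libraries and 16.2 ± 0.999 TPM in the WT-labelled ones (-0.35, limma adjusted p = 0.285).

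Among 7 tested P2Y genes (median 0.17), P2ry2, a receptor for ATP and UTP, was above without overlap at a low level, 3.20 ± 0.803 TPM in the KO-labelled libraries and 1.95 ± 0.648 TPM in the WT-labelled ones. P2ry14, which senses UDP-glucose, differed by 0.52 with overlap. P2ry10, by far the highest of this list at 352.6 ± 55.6 TPM in the KO-labelled libraries and 381.9 ± 24.3 TPM in the WT-labelled ones, is named with the family but is known as a receptor for lysophosphatidylserine, and differed by -0.12. Of 6 tested ATP release genes (median -0.02), Panx1 was given above, Lrrc8c of the volume-regulated anion channel differed by -0.20, and Gja1 (connexin 43) by 0.50, both with overlap.

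The 21 genes of the cyclic AMP arm had a median of -0.01, with 10 above 0 and 11 below. Adcy7, an adenylyl cyclase of blood cells, stood at 41.2, 43.8 and 65.7 TPM in the KO-labelled libraries 1, 2 and 3, against 59.0, 84.4 and 78.2 TPM in the WT-labelled ones 1, 2 and 3, with KO 3 inside the other group (-0.56, limma adjusted p = 0.262). Pde4b, which breaks cyclic AMP down, was 109.7 ± 15.7 TPM in the KO-labelled libraries and 137.3 ± 10.6 TPM in the WT-labelled ones, without overlap (-0.33). Prkar2a, a regulatory subunit of the kinase that cyclic AMP activates, was above without overlap (0.41). Gnas, the G protein through which A2a and A2b act, overlapped at 508.2 ± 2.26 TPM in the KO-labelled libraries and 512.2 ± 32.4 TPM in the WT-labelled ones (-0.01).

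**Figure D4:**
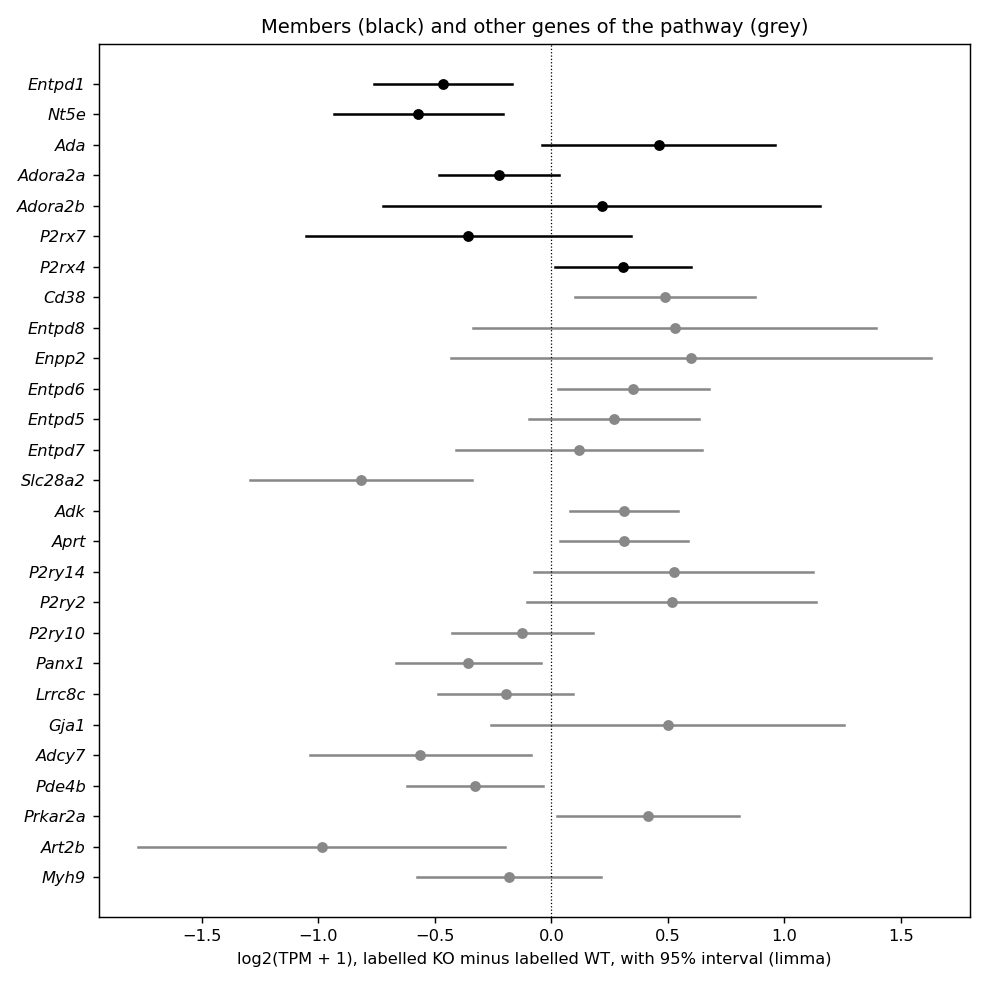
Difference of KO-labelled minus WT-labelled libraries in log2(TPM + 1), with limma's 95% interval, for the 7 genes (black) and the pathway genes of smallest p in each list (grey). Among the 7, the intervals of Entpd1, Nt5e and P2rx4 leave out 0 before adjustment for the number of genes, and no gene shown passes after it.

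For each member the 2 genes of most similar pattern were sought among 8278 genes with a mean of at least 10 TPM, by the root mean square difference of centred log2(TPM + 1) values over the 6 libraries. Entpd1 was closest to Wdr44 (0.0552) and Crebbp (0.0613), and Nt5e to Dusp4 (0.0748) and Ets2 (0.0798). Ada was closest to Mettl1 (0.0329) and Aimp2 (0.0739), and Adora2a to Slc52a3 (0.0308) and Acadsb (0.0359). P2rx7 was closest to Ptger2 (0.0598) and Prkcq (0.0725), and P2rx4 to Cyp2s1 (0.0444). Adora2b was the least matched, with Hmox1 (0.116) and Ces2e (0.144). For scale, the members' own profiles had a root mean square of 0.155 (Adora2a) to 0.492 (Adora2b).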

How the data were processed

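The authors deposited TPM values in a table with a row for each RefSeq transcript; these sum to 634200 to 644662 per library. The submitters' processing notes name FastQC 0.11.8, Trim Galore 0.4.4, STAR 2.5.3a, HOMER 4.9.1 and mm10, without order or settings. Libraries used a stranded poly(A) kit per the labels' protocols; whether strand was used in counting is not stated there. The deposited table's transcript lengths let reads be recovered: TPM times length was a whole multiple of 1 step (within 0.1) for 99.99% of values up to 500 reads. The recovered counts of Adora2b were all even (22, 80, 20, 16, 20 and 30), so both mates of read pairs may have been counted. Poisson intervals and limits drawn from reads would then be too narrow.

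Genes with at least 1 TPM in at least 3 of 6 libraries were tested with limma 3.58.1 in R 4.3.3 (variance trend, log2(TPM + 1), genotype only), and p-values were adjusted by Benjamini-Hochberg over all genes. Fold changes on that scale understate low genes. Exact permutation tests used SciPy 1.17.1. The fit was tested on simulated data. Members and lists were chosen with earlier results of these data known. Genes named beside the members are the up to 3 of smallest p per list and the 2 most similar in pattern, 1 of which is not reported here for P2rx4. Others were named after their values were seen. Scaling, filter, pseudocount, variance model, replicate block and left-out libraries were varied.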

Additional observations from a re-analysis of the deposited data

How the results depend on the processing

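Over 18 other settings (17 for Adora2b), Entpd1, Nt5e and P2rx7 stayed below 0 and Ada and P2rx4 above 0. Not all of these settings could turn a direction. Changes of filter, variance trend and replicate block leave the difference as it was and alter only its p-value. Leaving out a library cannot turn the sign of a member whose groups do not overlap. Set against Cd3 and Cd4 transcripts, Adora2a turned to 0.062, P2ry10 to 0.16, Lrrc8c to 0.093 and Myh9 to 0.11; Adora2b turned to -0.24 without the library KO 2. In that scaling P2rx7 and Panx1 came to -0.07 each, against -0.36 each in TPM, and Art2b to -0.70, against -0.98 in TPM. The median of all genes tested moved to 0.29. The count of genes past the threshold, 0 in the main setting, was 582 with weights per library and ran from 0 to 14 when single libraries were left out, with 14 only without the library WT 1. With those weights 1 of the 7 members (Nt5e) and 2 other pathway genes (Slc28a2 and Adcy7) passed, all lower; the cause was not tested. Leaving out single libraries, Entpd1 ran from -0.54 to -0.39, Nt5e from -0.74 to -0.44, Ada from 0.28 to 0.62, Adora2a from -0.29 to -0.15, Adora2b from -0.24 to 0.50, P2rx7 from -0.71 to -0.11 and P2rx4 from 0.24 to 0.38 on the log2 scale. With a pseudocount of 5, Ada was 0.30, and with weights per library P2rx7 was -0.66; Adora2b, at few reads, moved by over 1.5 times in several settings. Adora2b is not tested at the filter of 5 TPM. edgeR and DESeq2 were not run, since the deposited values are not counts.

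Same-numbered libraries did not deviate together (correlations 0.00, -0.22 and -0.04), nor did each correlate best with its own number. The replicate block gave 0 genes past the threshold, 0 members and 0 other pathway genes, as without it. Depth limits Ada and Adora2b, at 54 to 153 and 16 to 80 reads.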
